A study of Mus musculus with 4 samples.

Results

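The regulators of G protein signaling (RGS) are a gene family of which 10 members were followed here in mouse lung, namely Rgs1, Rgs2, Rgs3, Rgs4, Rgs5, Rgs10, Rgs14, Rgs16, Rgs18 and Rgs20. They were taken by gene symbol from the 23238 symbols in the files, which hold 21 RGS genes in all. The members had been chosen from their measured values in these same libraries, so the levels and differences below are descriptions, and no test was run on them. All 10 members passed the filter on low values, which asked for a normalized read count of 4 or more on average across libraries and kept 15164 rows.

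An RGS protein binds the active, GTP-loaded alpha subunit of a heterotrimeric G protein and speeds the hydrolysis of its GTP, which shortens the signal of the receptor that switched the G protein on. Most act on the Gi/o class, the Gq class or both. Chemokine receptors of leukocytes, thrombin and ADP receptors of platelets, and endothelin, angiotensin and adrenergic receptors of vascular smooth muscle signal through these classes, and lung tissue holds all of these cells. By sequence, Rgs1, Rgs2, Rgs3, Rgs4, Rgs5, Rgs16 and Rgs18 belong to the R4 subfamily of mostly small proteins, Rgs10 and Rgs14 to R12, and Rgs20 to RZ.

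Lungs came from male mice of the CDF1 strain in 4 groups given by treadmill exercise (E) and tumor (T). The normal control was E(-)T(-), the normal exercise group was E(+)T(-), the cancer control was E(-)T(+), and the cancer exercise group was E(+)T(+). In this order, called the library order where values follow each other, the 4 groups are named throughout. Exercised mice ran at high intensity every other day, and tumor-bearing mice received CT26 cells, a murine colorectal cancer line, through the tail vein. Each group had 10 mice, and the labels give the age of every sample as postnatal day 28. By the methods this was about the age at purchase, so the lungs were taken at a later age. There was 1 lung library per group, and so no difference has a replicate check. The paper names a single representative mouse per group for muscle and calls the lung analysis similar, without stating the source of the lung RNA. RNA of CT26 cells and of host lung is read together in the tumor libraries and cannot be told apart.

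Values are log2(normalized read count + 1), so that a log2 difference of 1 is close to 2-fold for well-covered genes and understates the change of low ones. Whole reads could be worked back from these values, and the totals were 13017397, 12780442, 9354529 and 13368042 reads in library order. Intervals are 95% exact (Clopper-Pearson) intervals of the ratio of reads on the log2 scale, and they cover counting error only. Libraries were prepared from the 3' ends of transcripts, and levels were compared within a gene, not between genes.

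The 4 libraries differed in what tissue they held. Summed normalized counts of 12 alveolar epithelium markers were 234702 in the normal control, 283613 with exercise, 35886 with tumor and 191290 with both, so the lung label was met in every library but least in E(-)T(+). In bulk tissue, fewer cells of a type and less RNA per cell cannot be told apart. Hemoglobin genes took 14.33%, 14.17%, 1.43% and 31.43% of the reads in the same order. The cell division list was highest in E(-)T(+), at 13367 against 528 in E(-)T(-). In addition, 9 genes reached 500 normalized counts in E(-)T(+) without a single read in E(-)T(-). The library labelled E(+)T(-) had reads of all 9, amounting to between 0.64% and 2.18% of the tumor level. In E(+)T(-), Rgs1 stood at 11.1% of its E(-)T(+) level, above that range, and Rgs16 had 0 reads. Rgs20 stood at 6.7%, but on 3 reads, and so was not apart from that range beyond counting error. The part of such a share in the results was not tested beyond taking its median, 1.47%, out of E(+)T(-).

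A sequence feature separates some members at the start of their coding region. Proteins that begin with methionine followed by cysteine can be processed at that end and degraded in an oxygen-dependent way, a route known for Rgs4, Rgs5 and Rgs16, so that their mRNA and protein levels need not move together. In the GENCODE M21 transcripts (GRCm38), codon 2 encoded cysteine in all complete coding transcripts of these 3 genes and in none of the other 7 members. The first 30 coding bases of each, with Rgs2 for contrast, are shown 5′ to 3′ with codon 2 in capitals. The start codons lie in exons of the genes at chr1:153740469 (Rgs16, plus strand), chr1:169747523 (Rgs4, minus), chr1:169655578 (Rgs5, plus) and chr1:144004118 (Rgs2, minus).
Rgs16: atgTGCcgcaccctagccaccttccccaac
Rgs4: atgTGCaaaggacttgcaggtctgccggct
Rgs5: atgTGTaagggactggcagctctgccgcac
Rgs2: atgCAAagtgccatgttcctggctgtccag
The longest proteins encoded were 201 residues for Rgs16, 205 for Rgs4, 181 for Rgs5 and 211 for Rgs2. The mRNA levels of the 3 cysteine-start genes followed 3 different orders across the libraries, as given for each gene.

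In the exercise effect without tumor, E(+)T(-) against E(-)T(-), 2 of the 10 members were higher by 2-fold or more (Rgs5 and Rgs20) and 2 were lower (Rgs1 and Rgs16). Of all filtered genes 5.28% were higher and 4.7% lower by that limit. Rgs20 rests there on 3 reads against 0, which is within counting error. In the exercise effect with tumor, E(+)T(+) against E(-)T(+), 5 members were higher (Rgs2, Rgs4, Rgs10, Rgs14 and Rgs18) and 2 lower (Rgs16 and Rgs20), beside 24.3% and 17.7% of all filtered genes.

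In the tumor effect without exercise, E(-)T(+) against E(-)T(-), 4 members were higher (Rgs1, Rgs5, Rgs16 and Rgs20) and 1 was lower (Rgs4), against 20.6% and 25.7% of all filtered genes. In the tumor effect with exercise, E(+)T(+) against E(+)T(-), 5 members were higher (Rgs1, Rgs2, Rgs10, Rgs16 and Rgs18) and 0 lower, against 14.9% and 13%. Every member past the limit in a tumor comparison was also past it in an exercise comparison, and Rgs14 was past it in the exercise effect with tumor alone. Since the members were chosen on these values, their counts are not evidence beside those shares. Each library enters 2 of the 4 comparisons, so the comparisons are not independent of each other.

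The median difference over the 10 members was 0.25 in the exercise effect without tumor, -0.39 in the tumor effect without exercise, 1.11 in the exercise effect with tumor and 0.88 in the tumor effect with exercise. The medians over all filtered genes were 0.000, -0.034, 0.009 and -0.003. With libraries at 0 reads set to the floor of 3 reads, the first member median was 0.15 (log2) and the others were as given. Scaling by library totals alone, in which hemoglobin reads weigh more, left 31.6% of the genes past the limit higher in the exercise effect with tumor, against 57.8% with the deposited values, and 28.2% against 53.5% in the tumor effect with exercise. Under that scaling Rgs10 and Rgs18 came inside the limit in the latter, at 0.76 and 0.91, and Rgs3 passed it as lower, at -1.29.

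**Figure D1:**
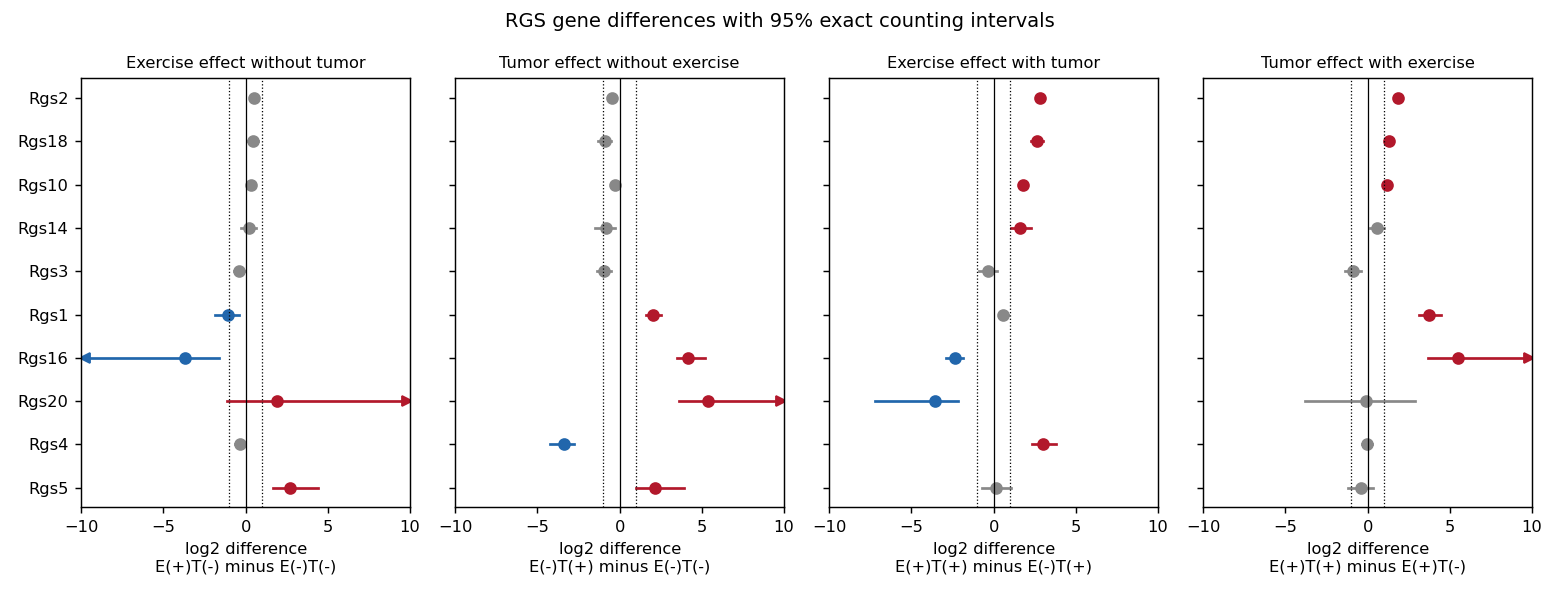
Log2 difference of each member in the 4 comparisons (x axis), with the 95% exact counting interval as a line, an arrow where the interval has no end because a library had 0 reads, and dotted lines at 2-fold. Red points are 2-fold or more higher, blue points 2-fold or more lower, and gray points neither. Rgs2, Rgs18, Rgs10, Rgs14 and Rgs4 lie to the right in the exercise effect with tumor, while Rgs16 and Rgs20 lie to the left.

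Rgs2, Rgs18, Rgs10 and Rgs14 shared 1 order of the libraries: highest in E(+)T(+), then E(+)T(-), then E(-)T(-), and lowest in E(-)T(+). Rgs2 is a regulator with a preference for Gq, and it restrains vasoconstrictor signals in smooth muscle. Its log2 levels were 10.83 in the normal control, 11.32 with exercise, 10.36 with tumor and 13.15 with both, from 2146, 2774, 1194 and 7764 reads. E(+)T(+) stood far above the other 3 libraries, which lay within 1 log2 unit of each other. The exercise effect with tumor was 2.79 (interval 2.71 to 2.88), or 6.94-fold on reads scaled to library size. Without tumor the exercise effect was 0.48 (0.40 to 0.56). The tumor effect was -0.48 (-0.58 to -0.38) without exercise and 1.83 (1.77 to 1.90) with it.

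Rgs18 is found mainly in platelets, megakaryocytes and other blood cells, where it limits platelet activation. Its levels were 7.28, 7.72, 6.40 and 9.04 on the log2 scale in library order, from 182, 228, 76 and 449 reads. The highest and lowest were thus both tumor libraries. The difference between them, the exercise effect with tumor, was 2.64 (2.30 to 3.03), or 6.30-fold on reads scaled to library size. The tumor effect with exercise was 1.32 (1.09 to 1.56), and without exercise it was -0.88 (-1.30 to -0.50), inside the limit.

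Rgs10 is a short regulator of Gi, consisting of little beyond the RGS domain, and is expressed in platelets and macrophages. It had 403 reads in the normal control, 467 with exercise, 252 with tumor and 825 with both, which are log2 levels of 8.42, 8.75, 8.12 and 9.92. E(+)T(+) was again alone at the top. The exercise effect with tumor was 1.80 (1.60 to 2.01) and the tumor effect with exercise 1.17 (1.003 to 1.34), while the effects in the control library's 2 comparisons were 0.32 and -0.31.

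Rgs14, a larger protein that also carries Ras-binding domains and a GoLoco motif, which holds Gi subunits in their GDP form, varied least within the same order. Its log2 levels were 6.16, 6.34, 5.30 and 6.92 in library order, from 83, 87, 35 and 103 reads. The 2 libraries without tumor did not differ beyond counting error, with an interval of -0.27 to 0.63 for their difference of 0.18. Only the exercise effect with tumor passed 2-fold, at 1.62 (1.08 to 2.25). Under library totals alone it was 1.03.

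Among the 10 members, the pair with the most alike values was Rgs2 and Rgs18, at a Euclidean distance of 0.47 between their centred log2 values over the 4 libraries. Rgs10 and Rgs14 followed at 0.59 and Rgs10 and Rgs18 at 0.64. Marker lists moved in the same libraries. The 12 platelet and megakaryocyte markers summed to 2685, 4708, 6626 and 30393 normalized counts in library order, and 10 of 11 neutrophil markers, the ones in the files, to 4349, 12665, 12761 and 213980. None of these markers was at 0 reads in any library. Both lists were thus highest in E(+)T(+), but neither was lowest in E(-)T(+), where the 4 RGS genes were. The erythroid list, 11 of 12 markers with the hemoglobin genes among them, had the same order of libraries as the 4 RGS genes, with sums of 1589523, 1667912, 146931 and 4931162. All 11 were higher by 2-fold or more in the exercise effect with tumor, beside 24.3% of all filtered genes, and Epb4.2 was at 0 reads in every library but E(+)T(+). The 10 immediate early genes summed to 7111, 8923, 8488 and 21575. The part of these lists in the RGS levels was not tested.

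**Figure D2:**
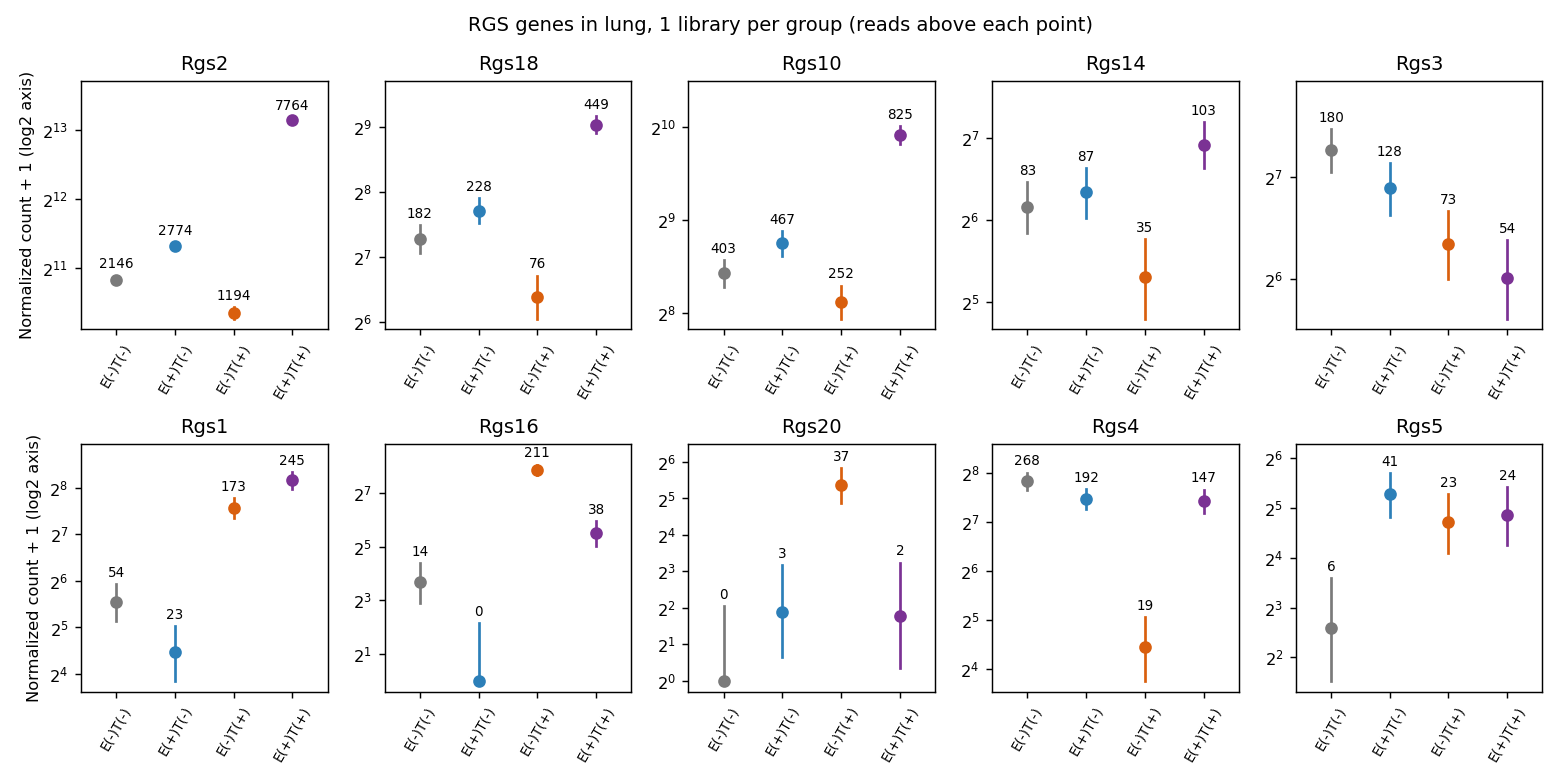
Normalized read count + 1 of each member (y axis, log2 scale, with its own range in each panel) in the 4 libraries (x axis, 1 library per group). Points are the library values, vertical lines the 95% exact Poisson intervals of the reads, and the numbers above are reads. The first 4 panels share 1 order with E(+)T(+) on top, while Rgs16 and Rgs20 are highest in E(-)T(+) and Rgs4 is lowest there.

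Rgs1 and Rgs16 are regulators of Gi and Gq that activated lymphocytes induce, and both dampen migration toward chemokines. They were higher in the tumor libraries. Rgs1 had log2 levels of 5.55 in the normal control, 4.46 with exercise, 7.57 with tumor and 8.17 with both, from 54, 23, 173 and 245 reads. Both tumor libraries lay above both libraries without tumor. The tumor effect was 2.03 (1.60 to 2.52) without exercise and 3.70 (3.14 to 4.45) with it. On reads scaled to library size these were 4.13-fold and 13.6-fold. The exercise effect without tumor, -1.09 (-1.89 to -0.39), was the member difference just past the limit. With a pseudocount of 4 it came inside it. The exercise effect with tumor was 0.59 (0.31 to 0.88), and -0.01 under library totals alone.

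Rgs16 had the widest range of the 10 members. It had 14 reads in the normal control, 0 with exercise, 211 with tumor and 38 with both, with log2 levels of 3.67, 0, 7.86 and 5.51. All 4 libraries were apart beyond counting error. The tumor effect without exercise was 4.18 (3.50 to 5.18), or 19.4-fold on reads scaled to library size. With E(+)T(-) put at the floor of 3 reads, Rgs16 was 16.1-fold higher in E(+)T(+) and 4.32-fold higher in E(-)T(-). Their exact intervals started at log2 3.64 for the former, and for the exercise effect without tumor ended at -1.62. The exercise effect with tumor was -2.35 (-2.92 to -1.88), so that Rgs16 was lower in the exercised library both without and with tumor, unlike Rgs1.

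The sums of lymphocyte markers did not follow Rgs1 and Rgs16. The 10 B cell markers summed to 1181 normalized counts in the normal control, 1082 with exercise, 35.7 with tumor and 350 with both, and Cd79a, Ms4a1, Pax5 and Blk were at 0 reads in E(-)T(+). The T cell list summed to 681, 599, 111 and 555, with Cd3g at 0 reads in E(-)T(+). The natural killer cell list summed to 1296, 979, 497 and 349. All 3 sums were thus lower in E(-)T(+) than in E(-)T(-), while Rgs1 and Rgs16 were higher. In that comparison 4 of the 6 natural killer cell markers were 2-fold or more lower, beside 25.7% of all filtered genes. The 1 higher was Prf1, beside 20.6%. Prf1 was among the lower genes in the exercise effect with tumor and in the tumor effect with exercise. The 8 macrophage markers summed to 3260, 3191, 10770 and 9176, and this sum was higher in both tumor libraries, as Rgs1 and Rgs16 were. Its order of libraries was that of Rgs16, whereas Rgs1 was highest in E(+)T(+). In the tumor effect without exercise 3 of the 8 were 2-fold or more higher, beside 20.6% of all filtered genes. In the tumor effect with exercise 5 were, beside 14.9%. The cell division list, at 528, 991, 13367 and 4118, had its top 2 libraries in the order of Rgs16. The part of these lists in the levels of Rgs1 and Rgs16 was not tested.

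Rgs20, also called RGSZ1, prefers the alpha subunit Gz, a member of the Gi/o class. It had 0 reads in the normal control, 3 with exercise, 37 with tumor and 2 with both, with log2 levels of 0, 1.89, 5.37 and 1.79. E(-)T(+) stood alone, and the other 3 libraries were at or under the floor of 3 reads and did not differ beyond counting error. With E(-)T(-) put at the floor, Rgs20 was 15.9-fold higher in E(-)T(+), and the exact interval of the log2 ratio started at 3.62. The exercise effect with tumor was -3.58 (-7.21 to -2.16) on 2 against 37 reads. Gnaz, which encodes Gz, had the reverse order in the tumor libraries, at 28.6 normalized counts in the cancer control and 250 in the cancer exercise library, against 93.4 in the normal control and 91.9 with exercise alone. The Rgs20 gene, 160710 bp on the minus strand of chromosome 1, overlaps Atp6v1h on the other strand and 4 predicted genes. Reads of overlapping genes may be shared, since the use of strand in the counting was not stated.

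Rgs4 and Rgs5, neighbours on chromosome 1 that mark cells of the vessel wall, parted in the tumor library without exercise. Rgs4 regulates Gi and Gq signals in smooth muscle, heart and neurons. Its log2 levels were 7.84 in the normal control, 7.47 with exercise, 4.45 with tumor and 7.43 with both, from 268, 192, 19 and 147 reads. E(-)T(+) was far below the other 3. The tumor effect without exercise was -3.39 (-4.21 to -2.78), or 10.9-fold lower on reads scaled to library size. The exercise effect with tumor was 2.98 (2.35 to 3.82), or 8.26-fold higher. E(+)T(+) and E(+)T(-) did not differ beyond counting error, at -0.04 (-0.36 to 0.28).

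Rgs5, a marker of pericytes, had few reads: 6 in the normal control, 41 with exercise, 23 with tumor and 24 with both, which are log2 levels of 2.58, 5.28, 4.71 and 4.86. The control library was below the other 3, and these did not differ from their neighbours in order beyond counting error. The exercise effect without tumor was 2.69 (1.64 to 4.41) and the tumor effect without exercise 2.13 (0.97 to 3.89). The exercise effect with tumor was 0.15 (-0.73 to 1.05), and it was -0.44 under library totals alone.

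Vessel wall markers were low in E(-)T(+), as Rgs4 was. The 8 smooth muscle markers summed to 3882, 4502, 794 and 3807 normalized counts in library order. The 10 endothelial markers summed to 30185, 31725, 4100 and 30577, and the 8 pericyte markers to 2046, 2059, 486 and 1246. None of these markers was at 0 reads in any library. The pericyte list did not follow Rgs5, since E(-)T(-) held 2046 of it and only 6 reads of Rgs5. Low sums in E(-)T(+) were not particular to the vessel wall, since the alveolar epithelium, B cell and T cell lists were lowest there too. The part of these lists in the levels of Rgs4 and Rgs5 was not tested.

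**Figure D3:**
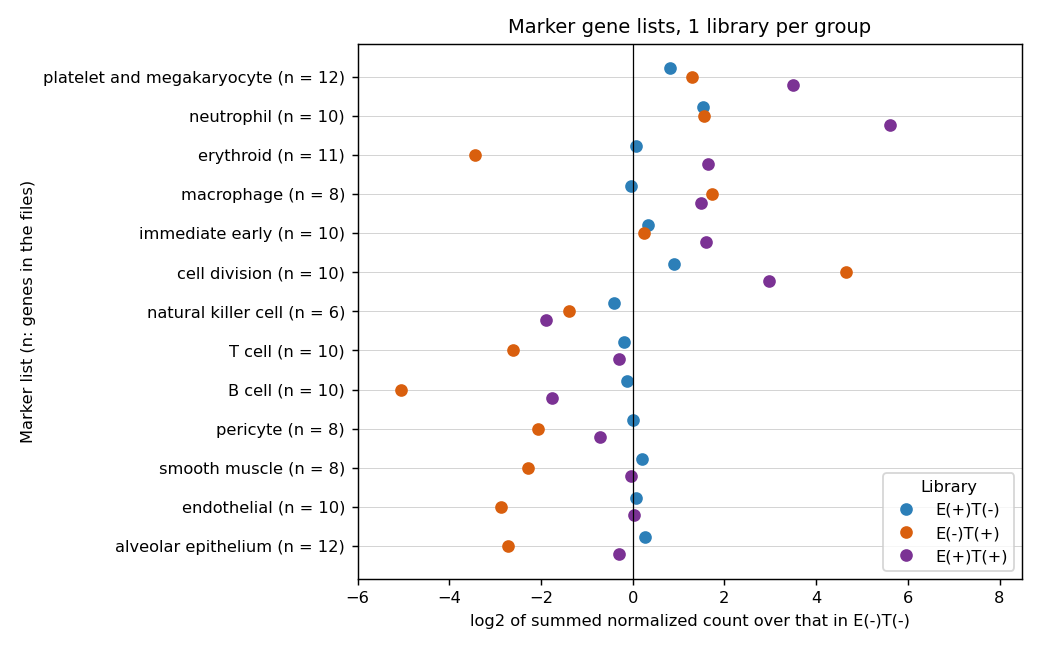
Summed normalized counts of each marker list in 3 libraries relative to E(-)T(-) (x axis, log2 ratio), 1 row per list with the number of its genes in the files. Colors are libraries, with 1 library per group. Platelet and neutrophil lists are farthest right in E(+)T(+), and B cell, T cell, natural killer cell, erythroid, endothelial, alveolar epithelium, smooth muscle and pericyte lists lie to the left in E(-)T(+).

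Rgs3 was the 1 member that passed the 2-fold limit in no comparison of the deposited values. It encodes several isoforms that act on Gi and Gq, and GENCODE holds 5 complete coding transcripts of 433 to 966 residues, which the gene counts do not separate. Its log2 levels were 7.27 in the normal control, 6.89 with exercise, 6.34 with tumor and 6.005 with both, from 180, 128, 73 and 54 reads. The tumor libraries were both below the libraries without tumor, but they did not differ from each other beyond counting error, at -0.34 (-0.88 to 0.19). The tumor effect was -0.93 (-1.35 to -0.54) without exercise and -0.89 (-1.38 to -0.43) with it, just inside the limit. Other scalings put Rgs3 past the limit as lower. The tumor effect without exercise was -1.02 under library totals without hemoglobin, and that with exercise was -1.29 under library totals alone.

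Counted by library, 5 of the 10 members were highest in E(+)T(+) (Rgs1, Rgs2, Rgs10, Rgs14 and Rgs18), while Rgs3 and Rgs4 were highest in the normal control, Rgs16 and Rgs20 in the cancer control, and Rgs5 in the normal exercise library. Rgs2, Rgs4, Rgs10, Rgs14 and Rgs18 were lowest in E(-)T(+), Rgs5 and Rgs20 in E(-)T(-), Rgs1 and Rgs16 in E(+)T(-), and Rgs3 in E(+)T(+).

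By the GENCODE annotation of GRCm38, 7 of the 10 members lie on chromosome 1. Rgs2 (chr1:143999338-144004161), Rgs1 (chr1:144242296-144249242) and Rgs18 (chr1:144752683-144775435) sit on the minus strand within 776098 bp, together with Rgs13 and Rgs21. Within that stretch Rgs2 and Rgs18 had the same order of libraries and Rgs1 another. Rgs13 had 6 reads in the normal control and 0 elsewhere, and Rgs21 had 0 reads in all 4. Rgs5 (chr1:169655501-169695813, plus strand) and Rgs4 (chr1:169741477-169747642, minus strand) face each other with their 3' ends 45663 bp apart, and Rgs16 (chr1:153740349-153745468) and Rgs20 (chr1:4909576-5070285) lie elsewhere on the chromosome. Rgs3 (chr4:62559847-62704001), Rgs10 (chr7:128373621-128418758) and Rgs14 (chr13:55369732-55384687) are on other chromosomes. Predicted genes overlap Rgs3 (Gm11209) and Rgs16 (Gm28513) on the opposite strand and Rgs10 (Gm15503) on the same one, and their reads may be shared in the counts.

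Promoter sequences, from 250 bases before to 50 after the start site, were given in the RefSeq table (GRCm38.p6) for 6 members. Shown here are Rgs2 (chr1:144004100-144004399, minus strand) and Rgs10 (chr7:128418123-128418422, minus), which shared an order of libraries, Rgs4 (chr1:169747593-169747892, minus), which was lowest in E(-)T(+), and Rgs16 (chr1:153740103-153740402, plus), which was highest there. Capitals mark matches, searched on both strands, to the TATA box with the letters TATAAA, the AP-1 site TGANTCA, the cAMP response element TGACGTCA and its shorter core TGACG, which that element contains, or the E-box CACGTG.
Rgs2: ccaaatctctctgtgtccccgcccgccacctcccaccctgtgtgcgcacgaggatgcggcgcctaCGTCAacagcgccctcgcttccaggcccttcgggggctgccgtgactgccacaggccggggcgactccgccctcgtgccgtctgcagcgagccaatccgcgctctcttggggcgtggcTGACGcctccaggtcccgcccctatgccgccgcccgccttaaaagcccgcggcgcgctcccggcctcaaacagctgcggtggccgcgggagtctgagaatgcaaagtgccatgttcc
Rgs10: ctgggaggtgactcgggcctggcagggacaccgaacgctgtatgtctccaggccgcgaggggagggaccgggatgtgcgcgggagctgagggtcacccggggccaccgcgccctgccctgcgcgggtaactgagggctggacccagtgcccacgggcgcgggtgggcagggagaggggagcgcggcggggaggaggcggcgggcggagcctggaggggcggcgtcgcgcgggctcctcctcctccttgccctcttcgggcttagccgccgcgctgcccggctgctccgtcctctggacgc
Rgs4: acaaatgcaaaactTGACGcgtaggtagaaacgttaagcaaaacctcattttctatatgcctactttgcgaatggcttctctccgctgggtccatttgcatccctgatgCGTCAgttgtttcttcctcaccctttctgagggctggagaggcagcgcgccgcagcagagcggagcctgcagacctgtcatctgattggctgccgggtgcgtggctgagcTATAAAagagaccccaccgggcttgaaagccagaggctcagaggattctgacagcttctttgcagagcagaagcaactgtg
Rgs16: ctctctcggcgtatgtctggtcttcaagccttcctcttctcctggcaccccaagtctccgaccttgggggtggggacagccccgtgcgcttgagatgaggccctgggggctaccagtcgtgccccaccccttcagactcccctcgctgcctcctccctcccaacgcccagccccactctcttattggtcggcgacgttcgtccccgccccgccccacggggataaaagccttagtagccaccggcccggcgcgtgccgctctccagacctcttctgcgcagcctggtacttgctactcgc
The Rgs2 promoter held TGACG at -185 and -67, counted from the start site, and the Rgs4 promoter held it at -236 and -141 and TATAAA at -31. None of the searched letters was found in the Rgs10 and Rgs16 windows. Over 32851 promoters of the same length in the table, 20.81% held TGACG, 13.62% TATAAA, 7.81% TGANTCA, 7.15% CACGTG and 1.79% TGACGTCA. A match is a description of the letters only. Rgs1, Rgs14, Rgs18 and Rgs20 had no entry in this table.

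For each member averaging 50 normalized counts or more, the 3 most alike genes were taken by the distance of centred log2 values over the 4 libraries, among 11215 genes at that level. With 4 points per gene, many genes lie close by. Plek (0.20), Samsn1 (0.21) and Slc25a37 (0.22) were nearest to Rgs2. Plek encodes pleckstrin, a major substrate of protein kinase C in platelets, and Slc25a37 encodes mitoferrin-1, the mitochondrial iron importer of erythroid cells. Fas (0.07), Dhrs11 (0.11) and Mcemp1 (0.15) were nearest to Rgs18. Rhog (0.16), Ggt5 and Cmas (both 0.18) were nearest to Rgs10, and Ptpn18 (0.06), Gcnt2 (0.07) and Slc10a6 (0.10) to Rgs14.

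Rgs1 lay nearest to Cirbp (0.17), which encodes a cold-inducible RNA-binding protein, Cxcl13 (0.37), the chemokine that draws B cells, and Apod (0.60). Rgs4 lay nearest to Rnase6 (0.09), Evpl (0.13) and Acvrl1 (0.17), the last an endothelial receptor of the BMP family, and Rgs3 to Rmnd5a (0.03), Klhl17 (0.08) and Lyrm9 (0.10). For Rgs16 even the nearest genes were distant, with Unc13c at 0.92, the mitotic kinase gene Ttk at 1.69 and Clca3a1 at 2.01. Rgs5 and Rgs20 were under the mean of 50.

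The rest of the family was measured as well. Of 11 other RGS genes 8 passed the filter, and Rgs8, Rgs13 and Rgs21 did not. In the tumor effect without exercise 1 was higher (Rgs7) and 4 were lower (Rgs6, Rgs9, Rgs17 and Rgs22), beside 20.6% and 25.7% of all filtered genes. In the exercise effect with tumor 3 were higher (Rgs7, Rgs9 and Rgs17) and 0 lower, beside 24.3% and 17.7%. In the tumor effect with exercise, where 5 members were higher and 0 lower, 1 of these genes was higher (Rgs7) and 3 were lower (Rgs6, Rgs11 and Rgs17), beside 14.9% and 13%. Rgs6, with 0 reads in E(+)T(+), was 6.81-fold lower there with that library put at the floor of 3 reads. The exact interval of its log2 ratio ended at -2.37. Rgs9, an R7 member known from photoreceptors and striatum, had 97, 131, 2 and 80 reads in library order. Like Rgs4, it was low in E(-)T(+) alone, by -4.68 (-8.30 to -3.34) against E(-)T(-). Rgs17, the RZ relative of Rgs20, had 38, 53, 1 and 6 reads and so was lowest where Rgs20 was highest.

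Rgs7 passed the limit in the higher direction in all 4 comparisons, but on 0, 2, 3 and 15 reads, and both of its differences from the normal control were within counting error. So were the Rgs17 difference in the exercise effect with tumor, on 6 reads against 1, and that of Rgs22 in the tumor effect without exercise, on 5 against 18. Rgs11 was past the limit as higher with exercise alone and as lower in the tumor effect with exercise, on at most 18 reads. Rgs12 and Rgs19 stayed inside the limit throughout, with 436 to 863 and 125 to 166 reads. Of the partners of the R7 subfamily, Rgs7bp, which anchors R7 proteins at the membrane, was at 63.8, 43.2, 6.6 and 43.3 normalized counts, again lowest in E(-)T(+).

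**Figure D4:**
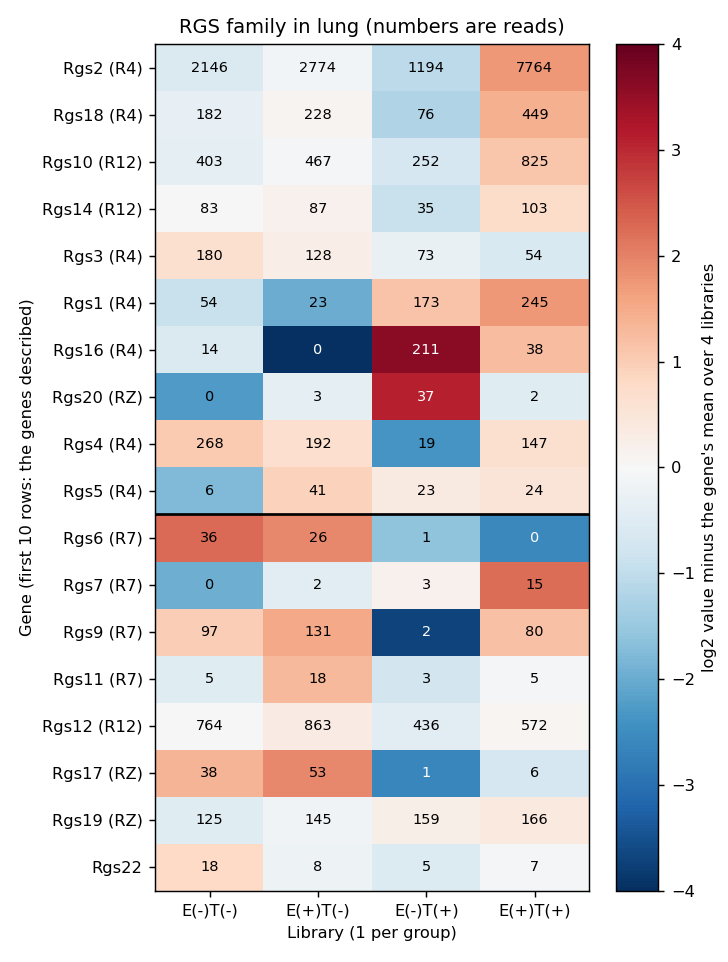
Log2 value of each RGS gene that passed the filter minus its mean over the 4 libraries (color, from blue for low to red for high), with reads printed in each cell and the subfamily in brackets. Rows above the line are the 10 members and rows below are the other 8. The darkest cells are Rgs16 in E(+)T(-), Rgs9 in E(-)T(+) and Rgs16 in E(-)T(+).

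The substrates of RGS proteins, the G alpha subunits, were lower in E(-)T(+) in part. Of 5 genes of the Gi/o class, 3 were lower by 2-fold or more in the tumor effect without exercise and the same 3 were higher in the exercise effect with tumor: Gnai1 (-2.69 and 1.68), Gnao1 (-1.83 and 1.62) and Gnaz (-1.67 and 3.08). Gnaz was also higher in the tumor effect with exercise, at 1.43. Of 4 genes of the Gq class, Gna11 (-1.94), Gna14 (-2.44) and Gna15 (-1.46) were lower in the tumor effect without exercise, and Gna11 (1.21) and Gna14 (1.24) were higher in the exercise effect with tumor. Of all filtered genes, 20.6% were higher and 25.7% lower in the former, and 24.3% and 17.7% in the latter. Gna14 was also lower in the tumor effect with exercise, at -1.04. In that comparison 14.9% of all filtered genes were higher and 13% lower. The 2 Gs genes and Gna13, which of its class alone passed the filter, stayed inside the limit in all 4 comparisons. In the exercise effect without tumor none of these G alpha genes was past the limit, beside 5.28% of all filtered genes higher and 4.7% lower.

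Of the G beta and gamma subunits that complete the trimer, Gng11 was lower in the tumor effect without exercise by -3.11 and higher in the exercise effect with tumor by 2.61. Of 3 beta genes, Gnb2 had the opposite signs, 1.08 and -1.03, and Gnb4 was lower in the tumor effect without exercise, by -1.50. Of 9 gamma genes, 3 were higher (Gng4, Gng8 and Gng13) and 2 lower (Gng2 and Gng11) in the tumor effect without exercise (median 0.60). Gng4, Gng8 and Gng13 had mean normalized counts under 20. Their differences, and in part the median, thus rest on low counts, unlike those of Gng2 and Gng11. Of the 9 gamma genes, 1 was higher (Gng11) and 2 were lower (Gng4 and Gng13, again on low counts) in the exercise effect with tumor (median -0.58). The kinases and arrestins that switch receptors off held 3 lower genes of 7 in the tumor effect without exercise, Arrb1 (-2.94), Adrbk2 (-2.63) and Grk5 (-1.98), and 1 higher, Grk6. In the exercise effect with tumor they held 4 higher and 0 lower. Adenylyl cyclases, the enzymes that Gs stimulates and Gi inhibits, held 6 lower genes of 8 in the tumor effect without exercise, among them Adcy4 (-3.29) and Adcy2 (-2.65), and 4 higher in the exercise effect with tumor. Adcy8, with a mean normalized count under 20, went the other way in both, as the 1 higher and the 1 lower gene. Phospholipase C beta, the effector of Gq, held 2 lower genes of 4 in the tumor effect without exercise, Plcb2 (-2.55) and Plcb1 (-1.52). Of 9 genes with an RGS homology domain outside the family, Snx13 (-2.29), Axin2 (-2.15) and Arhgef12 (-1.83) were the most strongly lower of 4 in the tumor effect without exercise, and Axin1 was higher there. In the exercise effect with tumor Arhgef12 was higher, and Axin1 and Arhgef11 were lower. Beside these counts, the shares of all filtered genes were 20.6% higher and 25.7% lower in the tumor effect without exercise, and 24.3% and 17.7% in the exercise effect with tumor.

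Among the receptors whose signals these regulators end, 7 of 11 vascular and platelet receptors were lower and 1 higher (F2rl3) in the tumor effect without exercise (median -2.06), and 9 of 11 were higher in the exercise effect with tumor, with a median of 2.52 (2.42 with libraries at 0 reads set to the floor). Of all filtered genes, 25.7% were lower and 20.6% higher in the former, and 24.3% were higher in the latter. The endothelin receptors Ednrb and Ednra were lower in the tumor effect without exercise by -3.02 and -2.40, and the alpha-1 adrenergic receptor gene Adra1b went from 44 reads in the normal control to 0 in the cancer control. F2rl2, a thrombin receptor of mouse platelets, went from 3 reads in the cancer control to 69 with exercise, a difference of 4.22 (3.01 to 6.93). P2ry12, the ADP receptor of platelets, was higher in the tumor effect with exercise, by 1.24. P2ry1, the other platelet ADP receptor, was among the lower genes in the tumor effect without exercise and among the higher ones in both exercise effects, at 1.48 in the one without tumor.

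Of 9 leukocyte receptors, 6 were lower in the tumor effect without exercise and 5 higher in the exercise effect with tumor. The lymphocyte homing receptor gene Ccr7 differed by -3.87 and 3.59, S1pr4 by -2.58 and 2.32, and Cxcr3 by -3.46 in the former. The neutrophil chemokine receptor gene Cxcr2 was higher in the exercise effects without and with tumor, by 1.47 and 2.11, and in the tumor effect with exercise, by 1.88. It was also the 1 leukocyte receptor past the limit as higher in the tumor effect without exercise. Its normalized counts were 52.6, 147, 125 and 543 in library order, in step with the neutrophil list in being highest in E(+)T(+). Of all filtered genes, 25.7% were lower in the tumor effect without exercise and 24.3% higher in the exercise effect with tumor. Other leukocyte receptors went the other way from Cxcr2. In the tumor effect with exercise 3 were lower, S1pr5, Cxcr3 (-2.47) and Cxcr5 (-1.20), where 14.9% of all filtered genes were higher and 13% lower. S1pr5 was also lower in the exercise effect without tumor, beside 5.28% higher and 4.7% lower.

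**Figure D5:**
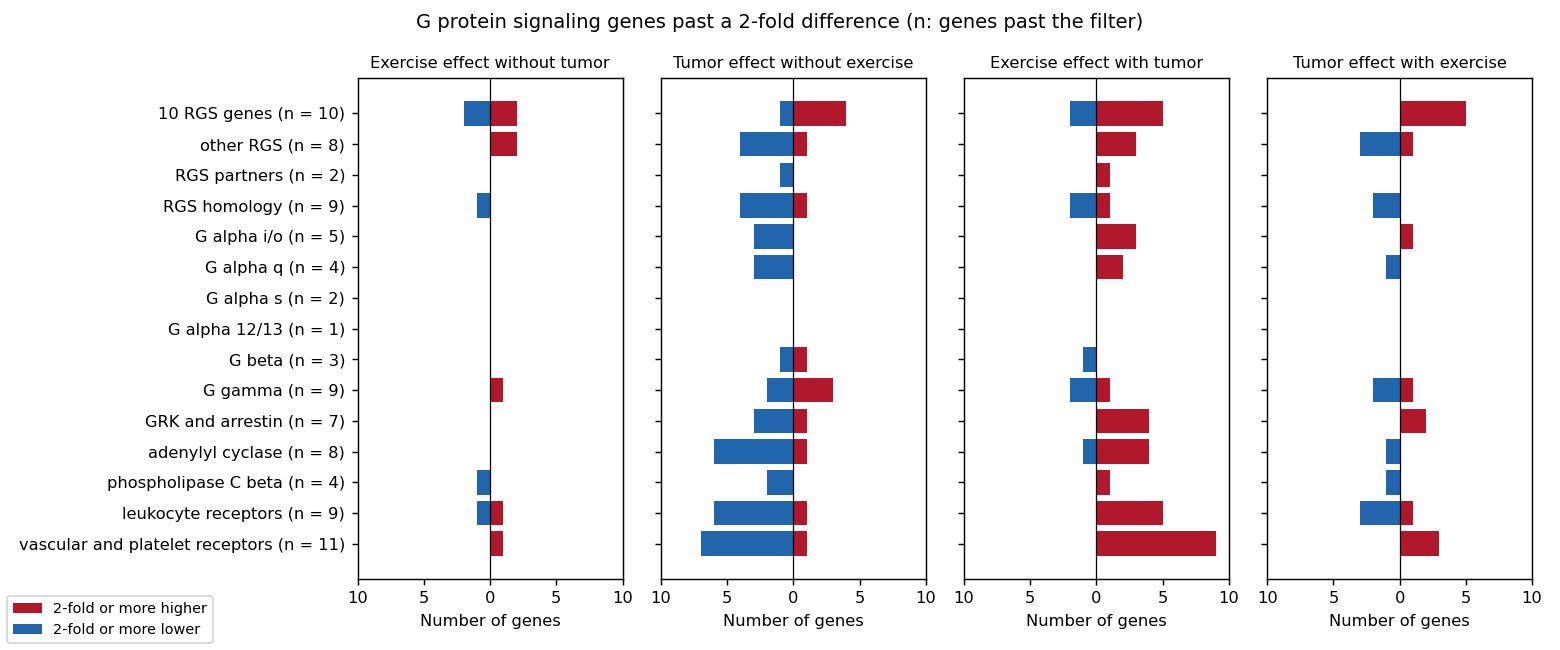
Number of genes of each list that were higher (red, to the right) or lower (blue, to the left) by 2-fold or more in the 4 comparisons, with n the genes past the filter. The top row is the 10 members, which had 5 higher and 2 lower genes in the exercise effect with tumor, where vascular and platelet receptors had 9 higher and 0 lower.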

How the data were processed

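Lung RNA was read in 4 libraries, 1 per group. The authors sequenced 3' ends (QuantSeq, single-end reads on a NextSeq 500), aligned with Bowtie2, counted with bedtools and normalized with the quantile method of edgeR; the processing notes name mm10, and versions were not given in the sources used here. The deposited values are log2 normalized read counts plus 1, for 23282 rows.

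Whole reads recovered from the log2 values: reads were found by inverting a negative binomial quantile adjustment with a fitted dispersion of 0.372. They gave back 100% of the deposited values within 0.001, with a largest error of 0.00052. Rounding leaves up to 2.69 reads either way for Rgs2 and under 1 read in the other members. No count model was run, since 1 library per group allows no test. The inversion, with sizes and dispersion given, was tested on simulated data. A floor of 3 reads was 0.230, 0.235, 0.321 and 0.224 CPM in library order.

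Differences were taken between log2 values. A gene was past the limit at 2-fold or more with a mean normalized count of at least 4. Named genes were all 10 members, up to 3 genes per list and comparison with the largest difference past the limit at a mean of at least 20, and the 3 most alike genes of each member at a mean of at least 50. Other genes past the limit in the lists, among them some with a mean under 20, were named from the list counts. Members and lists were chosen with earlier results of these data known. The symbols Ly6g and Ahsp of the marker lists were not found in the files. The pseudocount, filter, scaling and limit were varied. Python 3.11.15, numpy 2.4.6, scipy 1.17.1, pandas 2.3.3 and matplotlib 3.10.9 were used.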

Additional observations from a re-analysis of the deposited data

Results flagged for a closer look

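Some members moved in opposite directions under the same contrast in 2 settings. With 1 library per group these differences between effects were not tested, and each rests on all 4 libraries. The exercise effects without and with tumor were -1.09 and 0.59 (log2) for Rgs1, -0.37 and 2.98 for Rgs4, and 1.89 and -3.58 for Rgs20, whose first value is 3 reads against 0. Under library totals alone the Rgs1 values were -1.17 and -0.01, and so no longer opposite. The tumor effects without and with exercise were -0.48 and 1.83 for Rgs2, -0.31 and 1.17 for Rgs10, -0.86 and 0.58 for Rgs14, and -0.88 and 1.32 for Rgs18. They were 2.13 and -0.42 for Rgs5 and 5.37 and -0.10 for Rgs20. The second values of Rgs5 and Rgs20 lie within counting error. With the E(-)T(+) share taken out of E(+)T(-), that of Rgs20 was 0.15.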

How the results depend on the processing

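No replicate could be left out, since each group has 1 library. No paired analysis was possible because each group has 1 library and the result comes from no test. With a pseudocount of 4, members past the limit numbered 2 in place of 4 for the exercise effect without tumor (1 higher, 1 lower). At a limit of 1.5-fold, 8 members were past it in the tumor effect without exercise (4 higher, 4 lower), and at 3-fold 3 were in the tumor effect with exercise (3 higher). Each other count stayed within 1.5 times the reported one. No member past the limit changed direction under any alternative run. Differences inside the limit changed sign under library totals alone for Rgs1 and Rgs5 (exercise effect with tumor), and for Rgs20 (tumor effect with exercise) when the E(-)T(+) share was taken out of E(+)T(-), an alternative chosen after seeing the data. Library totals alone moved the median of all genes to -0.08 for the exercise effect without tumor, 0.07 for the tumor effect without exercise, -0.59 for the exercise effect with tumor and -0.41 for the tumor effect with exercise, and 13 of 40 member differences moved by more than their counting interval; the cause was not tested. Totals without hemoglobin moved the median to -0.13 in the tumor effect without exercise. Depth limits Rgs20 most, with 37 reads in its highest library, then Rgs5 with 41.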
